A study of Mus musculus with 6 samples.

Results

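Cathepsins are proteases that work mainly in the lysosome, and macrophages use them to break down what they engulf and to prepare antigens. The panel carried 6 genes of this kind, taken as every gene symbol made of Cts and 1 further letter (Ctsa, Ctsd, Ctsg, Ctsl and Ctss) together with Grn, out of 753 genes measured. Grn encodes progranulin, a secreted glycoprotein that is also delivered to the lysosome, where proteases cut it into granulin peptides. Of the 6 genes, 5 passed the filter on low values and were tested among 490 genes, and Ctsg did not pass.

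RNA came from cultured macrophages grown from bone marrow flushed from the femur and tibia of mice. The 3 control libraries were labelled wild type and the 3 FHKO libraries came from mice lacking factor H, a soluble inhibitor of the complement cascade, for which the labels' protocol gives an age of 8 to 10 weeks. No treatment was given to either group. The sources used here do not give the age of the control mice, the sex, the strain, the knockout allele or whether each library came from its own animal, so p-values measure only the spread between these libraries. The RNA of factor H itself was not analysed here, which leaves the labelled genotypes unchecked. Values are normalised counts, meaning counts per gene multiplied by 1 factor per library. Before that factor, the counts recovered from the values summed to 717503 to 1348064 per library. All 7 macrophage markers examined (Adgre1, Csf1r, Cd68, Itgam, Mertk, Fcgr1 and Mrc1) lay above the negative controls in every library, with a summed level of 45526 to 48394 in control and 47405 to 49684 in FHKO. Of these, Adgre1 (11645 to 12445 in control and 12969 to 13172 in FHKO) and Csf1r (5676 to 6044 and 6668 to 7393) were higher in FHKO without overlap, and the other 5 overlapped. This holds for the deposited values, in which 22.9% of all tested genes were higher in FHKO without overlap.

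The proteins differ in chemistry and place. Ctsd encodes an aspartic protease, Ctss and Ctsl encode cysteine proteases, Ctsa encodes a serine carboxypeptidase that also stabilises other lysosomal enzymes, and Ctsg encodes a serine protease of neutrophil granules. Cathepsin S keeps its activity at near-neutral pH and cuts the invariant chain that occupies MHC class II molecules before they bind peptide. Many lysosomal genes carry an E-box with the letters CACGTG, which the transcription factor TFEB and its relatives can bind, and many myeloid genes carry the core letters GAGGAA of PU.1 sites.

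The promoters of Ctsd and Ctss are shown because these genes had the lowest and the highest log2 difference of the tested members, and that of Grn because it covaried with Ctsd within groups. Each is the RefSeq window on GRCm38.p6 from 250 bases before to 50 bases after the start of the gene, 5′ to 3′ on the strand of the gene. Capitals mark, on either strand, the E-box letters CACGTG, the PU.1 core GAGGAA and the letters TATAAA of a TATA box.
Ctsd, chr7:142387778-142388077, minus strand: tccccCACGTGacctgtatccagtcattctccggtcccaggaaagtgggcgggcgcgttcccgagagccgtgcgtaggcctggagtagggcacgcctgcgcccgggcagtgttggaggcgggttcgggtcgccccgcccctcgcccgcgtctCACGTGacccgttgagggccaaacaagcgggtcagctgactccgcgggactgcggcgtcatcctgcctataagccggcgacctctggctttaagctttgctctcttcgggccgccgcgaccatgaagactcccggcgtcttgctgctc
Ctss, chr3:95526536-95526835, plus strand: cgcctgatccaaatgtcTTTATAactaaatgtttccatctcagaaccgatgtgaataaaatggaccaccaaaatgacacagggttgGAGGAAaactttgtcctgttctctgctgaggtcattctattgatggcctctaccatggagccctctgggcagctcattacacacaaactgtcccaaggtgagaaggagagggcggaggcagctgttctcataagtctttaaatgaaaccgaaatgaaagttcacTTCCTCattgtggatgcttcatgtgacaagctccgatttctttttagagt
Grn, chr11:102430257-102430556, plus strand: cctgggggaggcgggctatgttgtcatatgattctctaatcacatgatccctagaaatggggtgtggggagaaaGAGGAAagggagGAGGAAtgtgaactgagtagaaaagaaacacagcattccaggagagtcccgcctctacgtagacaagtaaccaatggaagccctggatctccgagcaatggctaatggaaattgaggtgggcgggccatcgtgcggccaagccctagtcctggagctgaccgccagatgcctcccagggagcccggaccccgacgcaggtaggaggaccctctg

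The Ctsd window held 2 copies of CACGTG and none of GAGGAA, while the Ctss and Grn windows held 2 copies of GAGGAA each and none of CACGTG. Ctss also held 1 copy of TATAAA. Among the other members, CACGTG lay in 1 of the 2 Ctsa windows and in the Ctsl window, and the Ctsg window held the PU.1 core and the TATA letters. Of all 32851 windows in the same set, 7.15% held CACGTG, 28.3% held GAGGAA and 13.6% held TATAAA on either strand. No copies of different motifs overlapped in the members' windows. These matches describe letters and not binding.

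Ctsd was at 186805, 158700 and 151184 normalised counts in control libraries 1 to 3 and at 137177, 136106 and 139183 in FHKO libraries 1 to 3. All 3 FHKO values lay below all 3 control values, and control library 1 stood above the other two controls. The means were 165563 ± 18776 for the controls and 137489 ± 1562 for the knockout (SD, n = 3 each), so the coefficient of variation was 11.3% in control and 1.14% in FHKO. The log2 difference, FHKO minus control, was -0.26 with a standard error of 0.085 and a 95% interval of -0.46 to -0.063 (limma, adjusted p = 0.148). Ctsd therefore did not pass the adjusted threshold of 0.05. Without control library 1 its log2 difference was -0.17 (limma, adjusted p = 0.298). Among the 490 tested genes, 23 had a lower log2 difference than Ctsd.

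These counts are read against the whole panel. In limma 0.204% of the tested genes were lower at an adjusted p under 0.05 and 0% were higher, and 0 of the 5 tested members passed. At an unadjusted p under 0.05 the panel had 3.47% lower and 19.0% higher, and of the members Ctsd was lower (unadjusted p = 0.0169) and 0 were higher. Groups that did not overlap were seen in 6.33% of tested genes on the lower side and 22.9% on the higher side, and of the 5 members in 1 on the lower side, Ctsd, and in 0 on the higher side. The median log2 difference of the members was 0.086, beside 0.16 over all tested genes, of which 71.8% lay above 0. In bulk RNA, fewer cells of a type and less RNA per cell cannot be told apart.

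**Figure D1:**
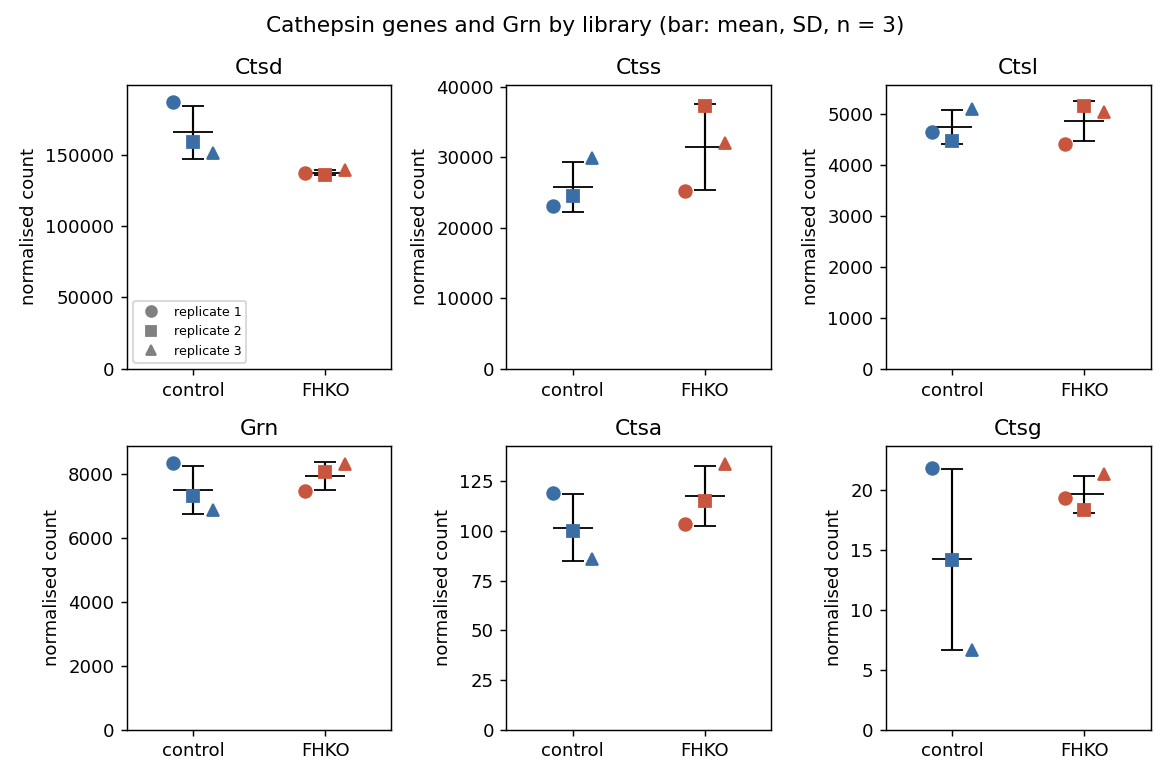
Normalised counts (vertical axes, from 0) of the 6 genes in the 3 control (blue) and 3 FHKO (red) libraries, with symbols for the replicate number and black bars for the mean and SD. The 3 FHKO values of Ctsd sit between 136106 and 139183, below all control values, and in the other 5 genes the groups overlap.

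Ctss was at 23040, 24424 and 29858 normalised counts in control libraries 1 to 3 and at 25192, 37294 and 31943 in FHKO libraries 1 to 3. FHKO library 1 lay within the control range, and the other two FHKO libraries lay above it. The means were 25774 ± 3604 (SD, n = 3) and 31477 ± 6065 (SD, n = 3), and the log2 difference was 0.28 with a standard error of 0.16 and a 95% interval of -0.093 to 0.65 (limma, adjusted p = 0.310). The difference could not be told from 0, which lay inside its interval. It was 0.15 without FHKO library 2 and 0.43 without FHKO library 1 (limma, adjusted p = 0.600 and 0.131). Relative to the median tested gene Ctss stood at 0.12 and Ctsd at -0.42 on the log2 scale. Of the tested genes, 66.5% had a lower log2 difference than Ctss and 4.69% had a lower one than Ctsd. Ctss thus lay closer to the median tested gene than Ctsd did.

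Ctsl, the cysteine protease closest in kind to Ctss among these members, was at 4660, 4467 and 5110 normalised counts in control and at 4420, 5155 and 5042 in FHKO libraries 1 to 3. The groups overlapped across nearly their whole range. Its log2 difference was 0.037 with a 95% interval of -0.18 to 0.25 (limma, adjusted p = 0.823). Ctsa was at 119, 100.04 and 85.7 in control and at 104, 115 and 134 in FHKO, again with overlap, and its log2 difference was 0.21 with a 95% interval of -0.19 to 0.61 (limma, adjusted p = 0.454). Leaving out 1 library moved it to 0.095 without control library 3, 0.11 without FHKO library 3 and 0.33 without control library 1.

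Grn was at 8351, 7317 and 6873 normalised counts in control libraries 1 to 3 and at 7474, 8079 and 8321 in FHKO libraries 1 to 3. Control library 1 held the highest value of all 6, and the other two controls held the lowest. The log2 difference was 0.086 with a standard error of 0.094 and a 95% interval of -0.13 to 0.31 (limma, adjusted p = 0.583). It was 0.024 without control library 3 and 0.16 without control library 1.

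Ctsg was near background in every library. Its recovered counts were 15, 14 and 7 in control and 14, 22 and 19 in FHKO libraries 1 to 3, and none exceeded the mean plus 2 SD of the 8 negative controls of its library, which lay between 16.4 and 30.5 counts. Its normalised count reached 20 in 2 of 6 libraries, so it was not tested. Of 8 markers of neutrophils and their precursors on the panel, 2 (Csf3r and S100a8) exceeded that level in at least 4 libraries. Elane and Mpo, granule enzyme genes of the same cells, were at 16.0 to 24.3 and 13.5 to 19.99 normalised counts. The summed level of the 8 markers was 299.6 to 343 in control and 283 to 375 in FHKO. None of the 4 dendritic cell, 4 mast cell and basophil and 1 B cell markers on the panel exceeded that level in at least 4 libraries, and 0 of the 7 T and NK cell markers were on the panel.

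The sign of several of these differences depended on the scaling. The deposited factors set the geometric mean of 16 reference genes equal across libraries. With library medians set equal instead, the median tested gene moved from 0.16 to -0.13. Ctsd then had -0.56 with a 95% interval of -0.90 to -0.21 (limma, adjusted p = 0.0646), and its groups still did not overlap. The groups of Ctsl did not overlap either with that scaling, at 5095 to 5557 in control and 4201 to 4683 in FHKO, so 2 of the 5 members were lower without overlap, beside 23.3% of tested genes. Ctss turned to -0.017, Grn to -0.21, Ctsl to -0.26 and Ctsa to -0.083 (limma, adjusted p = 0.965, 0.413, 0.203 and 0.851). With that scaling 2.04% of tested genes were lower and 0.816% higher at an adjusted p under 0.05 in limma, and again 0 of the 5 members passed. Ctsd lay below 0 under both scalings, whereas a positive sign for Ctss held only with the deposited one of these. Over 16 alternatives in scaling, filter, model or libraries left out, Ctss stayed above 0 in 15 (limma, adjusted p of 0.131 to 0.965 over all 16). Library medians set equal was the exception. The filters, eBayes without trend and the replicate block cannot move this estimate, which stayed at 0.28, so they add nothing on its sign.

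**Figure D2:**
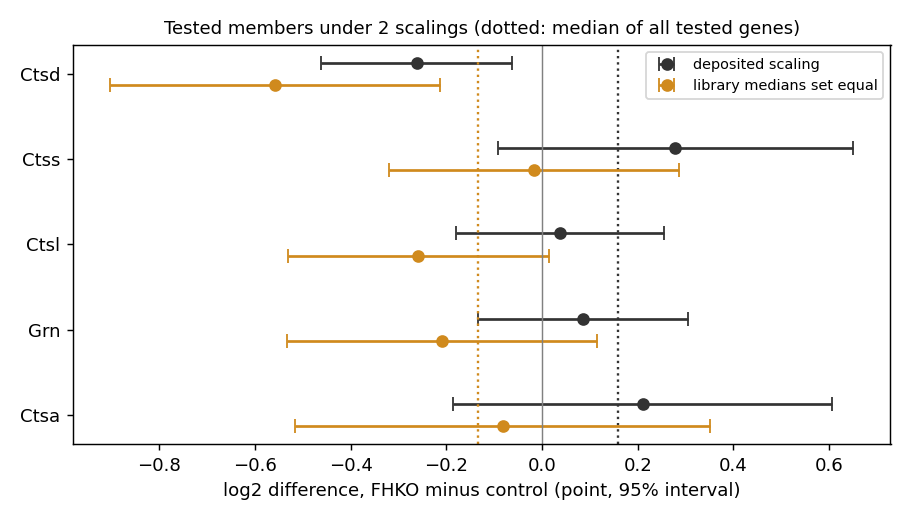
Log2 difference, FHKO minus control (horizontal axis), of the 5 tested members with 95% intervals from limma, for the deposited scaling (black) and with library medians set equal (orange). Dotted lines mark the median of all 490 tested genes, 0.16 and -0.13, and Ctsd alone has intervals that leave out 0 under both scalings.

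A share of the library sum does not depend on the scaling factor. Ctsd took 17.7%, 15.8% and 14.7% of the summed gene values in control libraries 1 to 3 and 13.8%, 12.1% and 13.4% in FHKO libraries 1 to 3. The lowest control share lay above the highest FHKO share. The means were 16.0% ± 1.55 (SD, n = 3) and 13.1% ± 0.885 (SD, n = 3), a difference of -2.92 percentage points (exact permutation test, two-sided, p = 0.1, the smallest that 3 against 3 libraries allow). Without control library 1 the difference was -2.09 points. How many genes of the panel separate the groups by their share was not counted. Ctsd and Ctss were proposed for their differences in these same data. Their p-values, from limma or permutation, therefore describe these libraries and are no independent support.

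Ctss took 2.18%, 2.43% and 2.89% in control and 2.54%, 3.32% and 3.08% in FHKO libraries 1 to 3. The control and FHKO shares overlapped, with means of 2.50% ± 0.361 and 2.98% ± 0.400 (SD, n = 3), 0.478 points apart (exact permutation test, two-sided, p = 0.2). Without FHKO library 2 the difference was 0.306 points. Grn took 0.666% to 0.792% in control and 0.720% to 0.801% in FHKO (exact permutation test, two-sided, p = 0.5). Ctsl took 0.442% to 0.495% and 0.446% to 0.485%, Ctsa 0.00831% to 0.0113% and 0.0102% to 0.0129%, and Ctsg at most 0.00207%.

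The 5 Cts genes together took 18.1% to 20.4% of the sum in control and 15.9% to 17.0% in FHKO libraries, without overlap. Ctsd made up 81.2% to 87.0% of this joint value in control and 76.2% to 82.2% in FHKO, so the joint share largely restates Ctsd. Without Ctsd the other 4 took 2.64% to 3.40% and 3.00% to 3.80%, with overlap. Probes differ in how well they capture their RNA, so these shares compare libraries and do not rank the genes by abundance. Since Ctsd is part of the sum, a lower Ctsd share raises every other share slightly.

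The pair of Ctss and Ctsd was proposed for its opposite differences, so its ratio is given as a description with no test. The normalised count of Ctss divided by that of Ctsd was 0.123, 0.154 and 0.197 in control libraries 1 to 3 and 0.184, 0.274 and 0.230 in FHKO libraries 1 to 3. FHKO library 1 lay below control library 3, so the groups overlapped. The mean log2 ratio was -2.69 ± 0.34 in control and -2.15 ± 0.29 in FHKO (SD, n = 3), a difference of 0.54. Leaving out 1 library at a time gave 0.37, without control library 1, to 0.71, without control library 3.

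The ratio of Grn to Ctsd varied less within groups. It was 0.0447, 0.0461 and 0.0455 in control libraries 1 to 3 and 0.0545, 0.0594 and 0.0598 in FHKO libraries 1 to 3, without overlap. Its log2 value averaged -4.46 ± 0.022 in control and -4.11 ± 0.074 in FHKO (SD, n = 3), a difference of 0.35. Of the other 489 tested genes, 55.0% had a ratio to Ctsd that was higher in FHKO without overlap and 0.613% one that was lower, so the separation of Grn from Ctsd is the common case on this panel. The ratio of Cd68, which encodes a lysosomal membrane glycoprotein of macrophages, to Ctsd was 0.132 to 0.138 in control and 0.153 to 0.156 in FHKO.

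**Figure D3:**
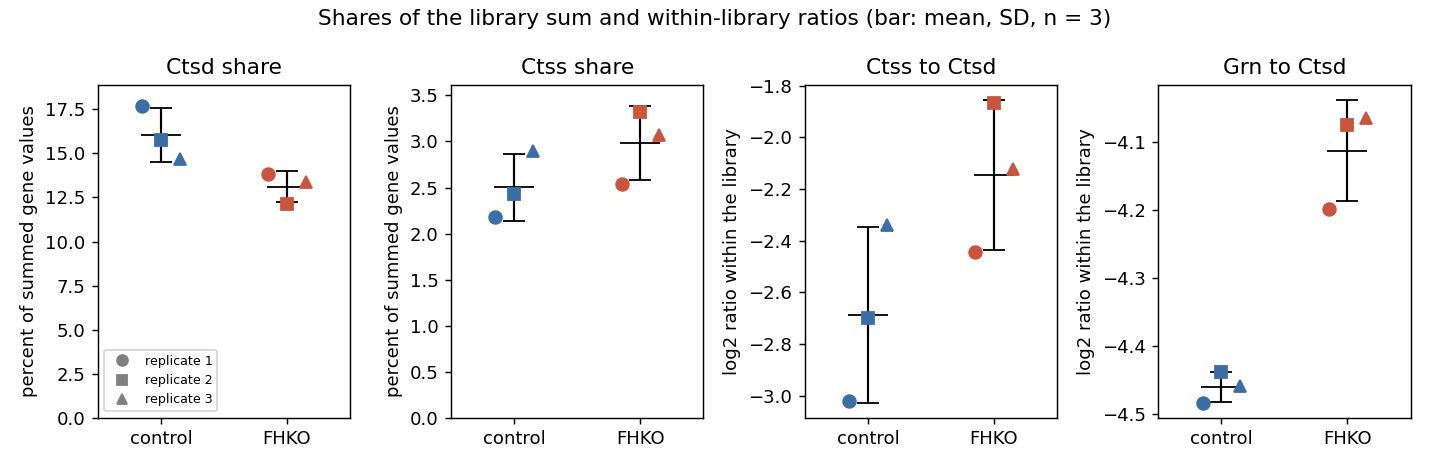
Share of the summed gene values in percent for Ctsd and Ctss (left pair of panels, axes from 0) and log2 ratios within each library of Ctss to Ctsd and of Grn to Ctsd (right pair, axes not from 0), for control (blue) and FHKO (red) libraries with the mean and SD in black. The Ctsd shares and the Grn to Ctsd ratios separate the groups, and the Ctss shares and the Ctss to Ctsd ratios overlap.

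Ctss moved with the size of the library in both groups. In control its normalised count of 23040, 24424 and 29858 went with recovered sums of 725234, 996065 and 1083624 counts. In FHKO 25192, 31943 and 37294 went with 717503, 925070 and 1348064. Ctsd ran the opposite way in control, with its highest value in the smallest library, and stayed within 136106 to 139183 in FHKO. The control and FHKO libraries with the smallest sums, both numbered 1, had Ctsd at 186805 and 137177 and Ctss at 23040 and 25192. The part of library size in these differences was not tested.

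**Figure D4:**
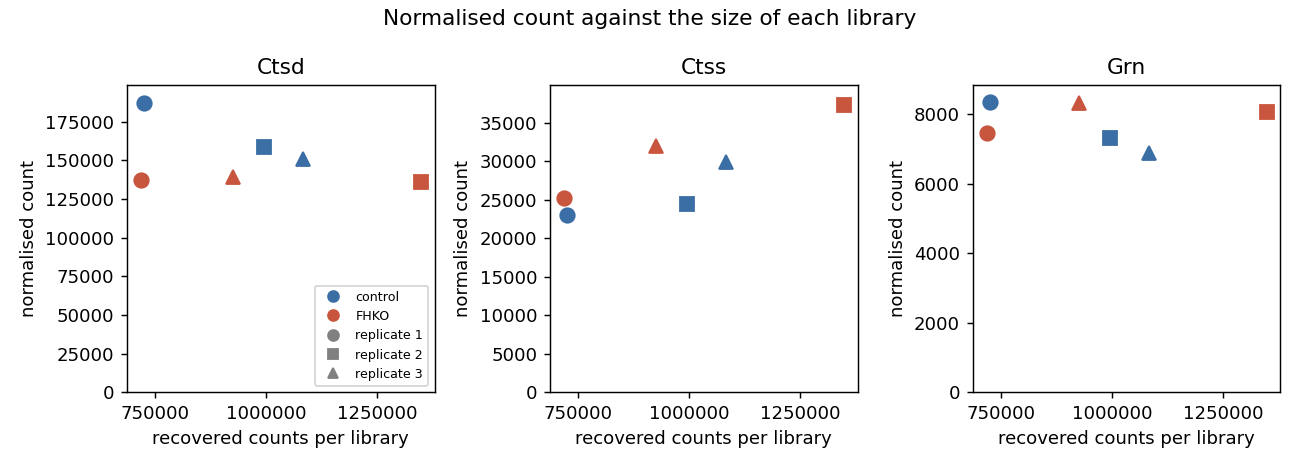
Normalised count (vertical axes, from 0) of Ctsd, Ctss and Grn against the recovered count sum of each library (horizontal axes), with control libraries in blue, FHKO libraries in red and symbols for the replicate number. Within each group Ctss is higher in the larger libraries, and Ctsd is lower in the larger libraries in control only.

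The members' variation is described by Pearson's r of log2 values over 6 libraries that share their scaling. Ctsa and Grn had r = 0.96, and Ctsl and Ctss had r = 0.86. With each group's mean removed these were 0.96 and 0.92, while Ctsd had 0.89 with Grn and 0.80 with Ctsa, where over all 6 libraries it had 0.13 and -0.029. Ctsd and Ctss had -0.70, or -0.48 with group means removed. The tested genes most like Ctsd were the tubulin gene Tuba1a, the respiratory chain gene Ndufa7 and the microglial and macrophage receptor gene Trem2 (r = 0.98 each). Those most like Ctss were the kinetochore gene Ndc80, the phosphatase gene Dusp6 and the signalling kinase gene Ripk2 (r = 0.99 each). Those most like Grn were the fatty acid synthase gene Fasn (r = 0.98), Nos2, which encodes inducible nitric oxide synthase (r = 0.96), and Vsir, which encodes an immune checkpoint protein (r = 0.94). Nos2 was at 11.4 to 27.6 normalised counts, close to background. Ndc80 was at 23.27 in control library 1 and 31.79 in FHKO library 1, also close to background. There the mean plus 2 SD of the negative controls was 24.6 and 29.1 normalised counts.

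Among other genes of lysosome and autophagy, 4 of the 30 listed were on the panel, all were tested, and 0 passed limma's threshold or an unadjusted p under 0.05. Of these, 0 lay above 0, with a median log2 difference of -0.058 beside 0.16 for all tested genes. Gusb, which encodes beta-glucuronidase and is a reference gene of the panel that the scaling did not use, had -0.11, Cd68 had -0.070 and the autophagy receptor gene Sqstm1 had -0.046. Cd68 was at 24579, 21942 and 20835 in control and 20999, 21242 and 21768 normalised counts in FHKO libraries 1 to 3. As for Ctsd, control library 1 was the highest, but the FHKO values of Cd68 lay within the control range.

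From a list of 9 genes drawn up as cathepsin inhibitors, 2 were on the panel, and neither passed (limma, adjusted p = 0.537 and 0.645). Serpinb6a and Serpinb9, both serpins, had log2 differences of 0.14 and -0.14. Whether these serpins act on the proteases of the tested members was not examined. Cstb, which encodes cystatin B, an inhibitor of cysteine cathepsins, was not on that list and was added after its values were seen. It was at 23114, 23322 and 23586 normalised counts in control and at 19807, 23740 and 23301 in FHKO, and FHKO library 1 alone stood apart. Its log2 difference was -0.072 (limma, adjusted p = 0.608), 0.011 without that library and -0.37 with library medians set equal.

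Of 13 listed genes of MHC class II processing, the pathway in which cathepsin S acts, 8 were tested and 0 passed limma's threshold or an unadjusted p under 0.05. Of these 3 lay above 0, with a median of -0.059. H2-Ob, H2-DMb1 and H2-DMb2, which encode parts of the peptide editors H2-O and H2-DM, had 0.31, -0.23 and 0.27. H2-Ob was at 18.09 to 26.95 and H2-DMb2 at 20.21 to 40.08 normalised counts, both close to background. On that scale the mean plus 2 SD of the negative controls was 16.5 to 29.1. Cd74, the invariant chain gene, was chosen for its role after values were known. It was at 9119, 7094 and 8938 normalised counts in control and at 7862, 12342 and 7259 in FHKO libraries 1 to 3. Its highest value was in FHKO library 2, as for Ctss, while the other two FHKO libraries lay within the control range.

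Of 13 listed genes that process or bind progranulin, 4 were tested and 0 passed limma's threshold or an unadjusted p under 0.05, with a median of 0.078. Mmp9, a matrix metalloproteinase gene, had -0.37, and the tumour necrosis factor receptor genes Tnfrsf1b and Tnfrsf1a had 0.16 and 0.071. Of 17 listed secreted or granule proteases, 7 were tested and 0 passed limma's adjusted threshold, 1 of them being lower at an unadjusted p under 0.05, and their median was -0.028. That gene was the metalloproteinase gene Mmp19, which had -0.40 with control values of 217 to 229 and FHKO values of 158 to 175 normalised counts. With library medians set equal Mmp19 passed, at -0.69 (limma, adjusted p = 0.0353). Adam8, a membrane-bound metalloproteinase gene, had 0.17. That scaling also turned the sign of Serpinb6a to -0.15, Tnfrsf1b to -0.13, Tnfrsf1a to -0.23, H2-DMb2 to -0.020 and Adam8 to -0.12, and it turned the median of the progranulin list to -0.22, with 0 of its 4 tested genes above 0.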

How the data were processed

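The deposited table holds a normalised signal for 753 genes and whole counts for 8 negative and 6 positive control rows. By the deposited values, 99.6% of gene signals are whole multiples, within 0.0051, of 1 step per library. The steps set the geometric mean of 16 of 20 reference genes equal across libraries (SD of 6.82e-06, log2). Platform, software and any background step are not given in the sources used here. Groups and replicate numbers came from sample titles.

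Genes at 20 or more in at least 3 libraries (490) were fitted as log2(value + 1) with limma 3.58.1 (lmFit, eBayes with trend, R 4.3.3) without block or covariate, two-sided, with Benjamini-Hochberg adjustment over all of them. This scale understates changes of low genes. Shares were tested by exact permutation (scipy 1.17.1). The fitting procedure was tested on simulated data. Negative controls averaged 8.38 to 14.8 counts.

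Members, lists and the pair of Ctss and Ctsd were chosen with earlier results of these data known. Always named were the members, then the 3 tested genes of smallest p per list and the 3 genes most correlated with Ctsd, Ctss and Grn. Alternatives were other scalings, filters, a pseudocount of 20, eBayes without trend, the replicate block and leaving out each library. Figures were drawn with matplotlib 3.10.9.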

Additional observations from a re-analysis of the deposited data

How the results depend on the processing

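No alternative brought any tested member past limma's adjusted threshold. Over 15 alternatives Ctsd stayed below 0, between -0.56 and -0.17 (limma, adjusted p of 0.0646 to 0.339). Quantile normalisation gave it no value, since Ctsd is the highest row of every library and is set equal by construction. Filters, eBayes without trend and the replicate block cannot change an estimate, only its standard error and p. As the Ctsd groups do not overlap, another pseudocount or a left-out library could not turn its sign either. Only the other scalings could have done so. With library medians set equal, Ctss had -0.017, Grn -0.21, Ctsl -0.26 and Ctsa -0.083, and 14 genes of the panel passed, beside 1 with the deposited scaling. Quantile normalisation gave Ctsa -0.095, Ctsl -0.053 and a Ctss to Ctsd log2 ratio difference of 0.17, which then reflects Ctss alone. Scaling by the library sum without Ctsd gave Ctsl -0.038. Setting medians or a sum equal multiplies each library by 1 factor, which moves every log2 difference by nearly the same amount. Why the scalings differ was not tested. Leaving out 1 library gave -0.0054 to 0.11 for Ctsl, 0 to 3 genes past the threshold and -0.00107 to 0.0617 points for the Grn share. With the replicate number as a replicate block Ctsd had -0.26 (limma, adjusted p = 0.218), Ctss 0.28 and Grn 0.086, with 0 genes past the threshold. Each group holds 1 library of every replicate number, so these differences equal those without the block by construction. Deviations from the group means of same-numbered libraries had r = 0.26, -0.033 and -0.29 across genes, and different-numbered ones -0.45 to 0.53. With 3 libraries a group these values cannot settle whether the numbers pair libraries. The sources used here state no pairing, so the main fit had no block. The planned tests on recovered counts were not run, because an automatic check of whole steps failed for control library 2, whose step of 1.01 is too close to 1, and for FHKO library 2, whose 2 values at a floor of 1 lie away from its step of 0.832. Control library 3 has 3 such values beside a step of 0.952 and passed. Precision is limited by 3 libraries a group, and for Ctsg by the negative controls.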
